A study of Mus musculus with 12 samples.

Results

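Transcripts of the myosin heavy chains of skeletal muscle, and of a long non-coding RNA encoded among them, were followed in 2 muscles of the mouse hindlimb, the soleus and the tibialis anterior (TA), with and without H6pd. All probe sets annotated to only 1 of 8 gene symbols were taken: Myh7, Myh7b, Myh2, Myh1, Myh4, Myh3, Myh8 and 2310065F04Rik, the last also called linc-Myh. This gave 11 of the 45101 probe sets on the array, 3 for Myh1, 2 for Myh4 and 1 for each other gene. The rule itself used no measured value, but the members were proposed with earlier results of these data known. There were 4 groups of 3 arrays each, KO soleus with WT soleus and KO TA with WT TA, all from mice 4 weeks old. KO stands for the hexose-6-phosphate dehydrogenase (H6pd) knockout and WT for wild type, and the labels name no strain, sex, allele or treatment. H6pd encodes an enzyme of the endoplasmic reticulum that makes NADPH there from sugar phosphates. The mice had been weaned and had no overt myopathy on histology per the design text, which gives the difference in fibre types as the reason for the choice of muscles. The labels call the arrays biological replicates without saying how the tissue was obtained, so p-values measure the spread between these arrays.

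Myosin heavy chains are the motor proteins of the thick filament, and the isoform that a fibre makes sets how fast it shortens. Slow fibres make the type I chain of Myh7, and adult fast fibres make the IIa, IIx or IIb chain of Myh2, Myh1 or Myh4. Myh3 and Myh8 encode the embryonic and the neonatal chain, which give way to adult chains after birth and return when muscle regenerates. Myh7b encodes a chain of the slow class that also carries a microRNA in its gene. The soleus of the mouse is rich in slow and IIa fibres, and the TA in IIb and IIx fibres. In mouse TA, linc-Myh has been studied as an RNA that favours the fast program over the slow one.

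The genes for the fast and developmental chains and linc-Myh lie side by side on mouse chromosome 11, whereas Myh7 and Myh7b lie on chromosomes 14 and 2. In the RefSeq gene order for GRCm38.p6 the row runs Myh3, linc-Myh, Myh2, Myh1, Myh4, Myh8 and then Myh13, which is no member, with a few other RNA genes in between. Linc-Myh is read from the minus strand and the Myh genes of the row from the plus strand. The promoters of the adult fast trio and of linc-Myh are shown because the results below on Myh2, Myh4 and linc-Myh turn on genes of this row and because the adult trio share a run of bases, each with 250 bases before and 50 after the start site, 5′ to 3′ on the gene's own strand (RefSeq, GRCm38.p6). The windows are chr11:67170777-67171076 for Myh2, chr11:67199852-67200151 for Myh1, chr11:67237562-67237861 for Myh4, all on the plus strand, and chr11:67120031-67120330 on the minus strand for linc-Myh. Capitals mark the longest run of bases that the Myh2, Myh1 and Myh4 windows have in common.
Myh2: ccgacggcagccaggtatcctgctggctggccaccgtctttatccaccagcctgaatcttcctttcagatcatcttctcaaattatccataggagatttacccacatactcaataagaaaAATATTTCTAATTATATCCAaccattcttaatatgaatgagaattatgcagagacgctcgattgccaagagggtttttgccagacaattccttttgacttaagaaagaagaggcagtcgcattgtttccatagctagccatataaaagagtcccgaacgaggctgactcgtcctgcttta
Myh1: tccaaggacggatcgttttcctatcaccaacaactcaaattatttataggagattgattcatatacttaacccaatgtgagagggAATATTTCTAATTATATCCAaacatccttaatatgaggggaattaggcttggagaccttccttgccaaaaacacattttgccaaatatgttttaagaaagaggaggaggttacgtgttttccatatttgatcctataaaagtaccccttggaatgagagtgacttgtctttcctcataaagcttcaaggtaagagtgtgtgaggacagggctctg
Myh4: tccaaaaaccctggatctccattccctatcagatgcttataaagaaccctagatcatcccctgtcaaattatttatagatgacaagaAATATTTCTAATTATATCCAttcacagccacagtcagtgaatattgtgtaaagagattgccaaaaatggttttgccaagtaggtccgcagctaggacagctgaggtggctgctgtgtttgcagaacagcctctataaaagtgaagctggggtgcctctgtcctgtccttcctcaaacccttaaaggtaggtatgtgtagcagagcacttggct
linc-Myh: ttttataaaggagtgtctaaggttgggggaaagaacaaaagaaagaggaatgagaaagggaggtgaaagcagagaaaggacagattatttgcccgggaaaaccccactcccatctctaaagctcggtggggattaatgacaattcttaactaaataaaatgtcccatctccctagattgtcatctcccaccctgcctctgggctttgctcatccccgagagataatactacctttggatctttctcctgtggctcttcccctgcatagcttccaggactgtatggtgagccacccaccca
The shared run, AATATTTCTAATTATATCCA, has 20 bases and begins at position -130 in Myh2, -165 in Myh1 and -163 in Myh4, counted back from the start site. It was found in 3 of the 32851 promoter windows of the RefSeq table on either strand (0.00913%), which are these 3. Its inner 14 bases, TTCTAATTATATCC, were also in the Myh8 window at position -54 and in 4 windows in all. Neither run was in the windows of linc-Myh, Myh3, Myh7 or Myh7b. The letters TATAAA were in the windows of Myh3, linc-Myh, Myh2, Myh1, Myh4 and Myh8 and in neither Myh7b nor Myh7, against 13.6% of all windows on either strand. The E-box letters CANNTG, whose Ns stand for any base and which overlap neither shared run, were absent from the windows of linc-Myh, Myh2 and Myh1, against 72.3% of all windows that held them.

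Myh7, Myh7b and Myh3 each hold a microRNA in the orientation of the gene. The mature forms are shown because both host genes were far brighter in soleus than in TA. Capitals mark the seed, bases 2 to 8 (RefSeq, GRCm38.p6).
mmu-miR-208b-3p, in Myh7: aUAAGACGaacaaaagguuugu
mmu-miR-499-5p, in Myh7b: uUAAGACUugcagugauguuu
The seeds share their first 6 bases. The microRNAs themselves were not analysed here.

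The members' results rest on arrays of muscle whose replicate numbers did not scatter at random. Over all probe sets with a mean log2 above 5, muscle separated the arrays along the first principal component (42.6% of the variance), and along the component after it (24.7%) the 4 arrays numbered 3 lay between -53.0 and -39.0 against 10.6 to 31.6 for the other 8. Each result was therefore also computed without the arrays numbered 3. Of 12 marker genes of skeletal muscle 0 were at background in any group, and of 9 cardiac markers 8 were on the array, 6 of them at background in every group. Of 49 tested genes on 9 marker lists of other cell types (smooth muscle and pericyte, satellite cell and myoblast, endothelial, fibroblast and matrix, tendon, adipocyte, Schwann cell, erythroid and myeloid), 0 rose and 2 fell between KO and WT TA, Thbs4 of the tendon list (-1.58, adjusted p = 0.033) and Lmod1 of the smooth muscle list (-0.88, adjusted p = 0.0295), which was at background in both TA groups. Between KO and WT soleus 0 passed. The summed level of a list overlapped between KO and WT for 8 of the 9 lists in each muscle. The satellite cell list lay apart in TA (10.47 to 11.03 in KO TA, against 9.60 to 10.36 in WT TA) and the endothelial list in soleus (11.08 to 11.43 in KO soleus, against 11.45 to 11.65 in WT soleus). The summed level weighs bright genes most, such as Chrna1 of the satellite cell list (9.85 in KO TA and 8.95 in WT TA). By mean log2 that list overlapped in TA (5.59 to 6.11 in KO TA, against 5.12 to 5.77 in WT TA), with 5 genes higher and 3 lower. The smooth muscle list then lay apart there (8.53 to 8.82 in KO TA, against 8.88 to 8.97 in WT TA). The part of such cells in the members' results was not tested. H6pd, read by 1 probe set, had 4.19, 4.41 and 6.10 (log2) in KO soleus, against 5.57, 6.12 and 7.11 in WT soleus, and 6.89, 6.49 and 7.49 in KO TA, against 6.37, 6.26 and 7.92 in WT TA. These overlap in both muscles (adjusted p = 0.654 in soleus and 0.972 in TA), and since the deleted part of H6pd is not named in the labels, this signal does not check the genotypes.

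Signals are log2 values after quantile normalization, and each probe set is compared only with itself, since brightness differs between probe sets for reasons other than the amount of RNA. Probe sequences were not analysed here, so whether a probe set also binds the transcript of a related Myh gene was not tested for any of the 11. A group counts as at background where its mean is at or under 3.66, the 90th percentile of the values of 19 genes that are silent in muscle. The highest value of an array was 16.29. Whether signals near it still grow with the amount of RNA was not tested, so the differences and folds of Myh2 and Myh7 in soleus, Myh4 1427026_at in TA, and Myh1 1427868_x_at and 1427520_a_at in both muscles are those of the signal and may understate those of the RNA. Tests are those of a linear model over all 12 arrays (limma), with p-values adjusted by Benjamini-Hochberg over all 22648 probe sets tested, and a difference passes at an adjusted p under 0.05. All 11 probe sets of the members were bright enough to be tested. In whole muscle, fewer fibres of a type and less RNA per fibre cannot be told apart.

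The knockout moved 2 of the 8 genes past the test in TA and 0 in soleus. In TA linc-Myh was at background in KO mice and bright in WT mice, and Myh2 was higher in KO mice, so 2 of 11 probe sets passed (1 higher and 1 lower), against 2.02% of all probe sets tested. In soleus 0 of 11 passed by limma, against 0.0221% of all probe sets. An unadjusted p under 0.05 was reached by 5 of the 11, against 1757 of all 22648 probe sets tested. These were all the Myh1 probe sets, Myh3 and linc-Myh. Of the 24 alternatives only array weights gave a call, for Myh3. The KO effect differed between the muscles for 1 of 11, linc-Myh, against 0.0353% of all. Its WT soleus mean lay just above background, so a fall as large as that in TA could not have been read in soleus. Between the muscles most of these genes differed: 7 of 11 probe sets passed between WT soleus and WT TA (4 higher and 3 lower in soleus), against 7.7% of all, and 8 of 11 between KO soleus and KO TA (4 higher and 4 lower), against 6.6% of all. The 3 values of one group lay wholly above or below the 3 of the other for 4 of 11 probe sets between KO and WT TA (21.7% of all), 5 between KO and WT soleus (11.2% of all), 9 between KO soleus and KO TA (27.7% of all) and 8 between WT soleus and WT TA (33% of all).

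**Figure D1:**
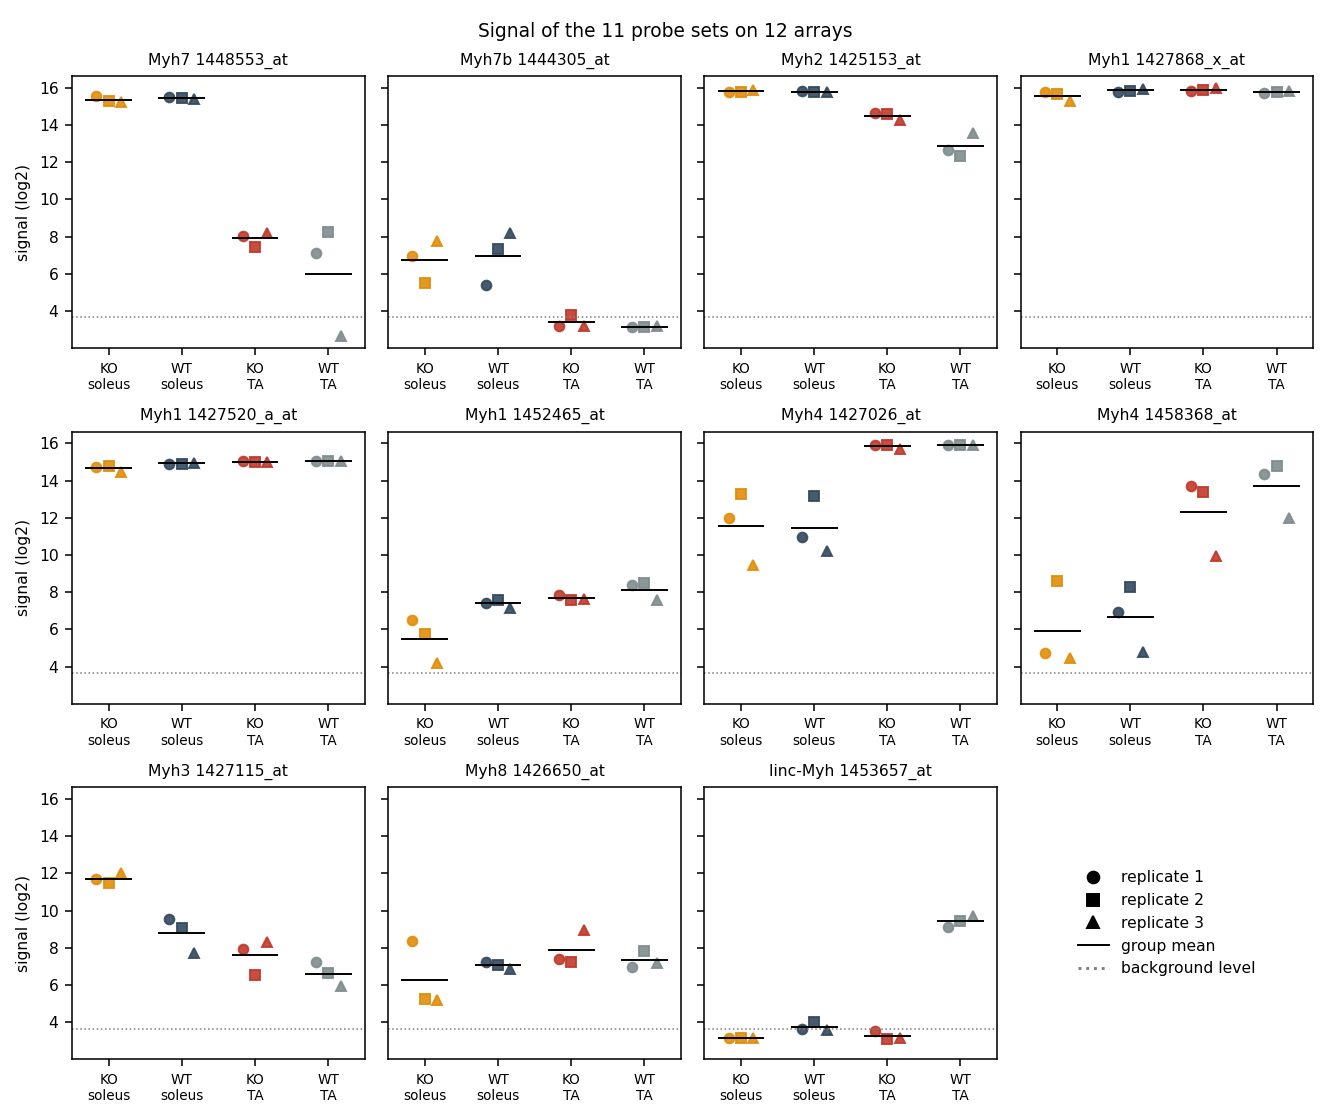
Signal of each of the 11 probe sets (log2, vertical axis) on every array of the 4 groups (soleus left, TA right, KO before WT in each), with a symbol for each replicate number, a bar at the group mean and a dotted line at the background level of 3.66. Linc-Myh is above 9 on the WT TA arrays alone, Myh2 is lower in TA than in soleus and least in WT TA, and the KO soleus arrays are the highest for Myh3.

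Linc-Myh was the member with the largest difference between KO and WT. Its signal was 3.15, 3.12 and 3.14 on the KO soleus arrays, against 3.64, 4.01 and 3.57 on the WT soleus arrays. It was 3.53, 3.10 and 3.15 on the KO TA arrays, against 9.14, 9.42 and 9.70 on the WT TA arrays. The RNA was thus clearly detected in WT TA alone, with KO TA and KO soleus at background and the WT soleus mean of 3.74 just above it. In TA it averaged 3.26 ± 0.24 in KO mice and 9.42 ± 0.28 in WT mice (SD, n = 3 each), a difference of -6.16 (SE 0.18, adjusted p = 3.84e-07), or at least 54.2-fold lower in KO TA. Of all 22648 probe sets tested between KO and WT TA this was rank 1 both by size and by p. In soleus the difference was -0.61 (SE 0.18, adjusted p = 0.376), and the 3 KO values lay below the 3 WT values though all 6 were near background. The KO effect in TA differed from that in soleus by -5.55 (SE 0.26, adjusted p = 3.00e-05). With WT soleus itself near background, a fall of the size seen in TA could not have been read in soleus.

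Between the muscles linc-Myh differed in WT mice. It averaged 3.74 ± 0.24 in WT soleus and 9.42 ± 0.28 in WT TA (SD, n = 3 each), a difference of -5.67 (SE 0.18, adjusted p = 4.24e-07). No fold is given for it, since 2 of the 3 WT soleus arrays lay under the background level. In KO mice soleus and TA were both at background and differed by -0.12 (SE 0.18, adjusted p = 0.775), with overlapping values. Over 23 alternative settings that could test it, the KO difference in TA stayed between -6.30 and -4.77, with adjusted p between 1.22e-07 and 0.0039.

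By the root mean square difference between profiles centred on their own mean over the 12 arrays, the genes most like linc-Myh of 8564 were Mss51 (1.05), Ighm (1.08), Mettl21e (1.54), Smox (1.58) and Osbpl6 (1.59), against a median of 2.65 over all of them. Mss51, which encodes a zinc finger protein of fast muscle, averaged 5.15 in KO soleus and 5.20 in WT soleus, and 7.20 in KO TA and 10.86 in WT TA. Ighm, the annotated gene of a probe set for the heavy chain of IgM, averaged 6.23 in KO soleus and 5.86 in WT soleus, and 7.24 in KO TA and 10.75 in WT TA. All 5 neighbours averaged 5.08 or more in KO TA, where linc-Myh was at background. Only genes whose brightest probe set averaged above log2 5 over the 12 arrays were compared, and linc-Myh itself averaged 4.89. A gene at background outside WT TA could thus hardly be a neighbour, so this contrast was largely set by the choice of genes. Likeness over 12 arrays of 4 groups is a description and was not tested.

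**Figure D2:**
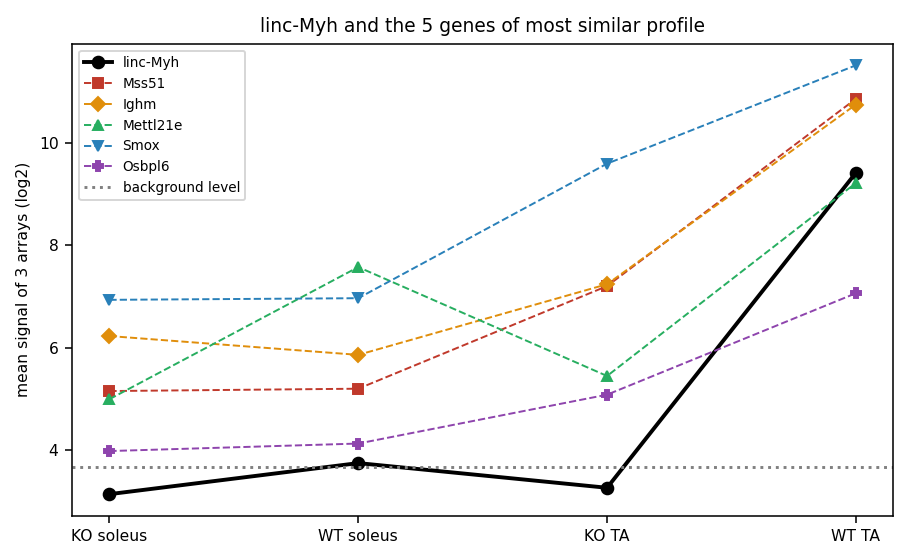
Mean signal of 3 arrays (log2, vertical axis) in the 4 groups (KO and WT soleus, then KO and WT TA) for linc-Myh (solid line) and the 5 genes of most similar profile (dashed lines), with the background level dotted. All 6 are highest in WT TA; linc-Myh averages 3.26 in KO TA and Mss51 averages 7.20 there.

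Myh2, the gene of the fast IIa chain, was the member that rose in KO TA. Its signal was 15.80, 15.75 and 15.88 on the KO soleus arrays, against 15.82, 15.78 and 15.78 on the WT soleus arrays. It was 14.62, 14.59 and 14.29 on the KO TA arrays, against 12.66, 12.34 and 13.56 on the WT TA arrays. The TA groups did not overlap, and WT TA replicate 3 was the nearest to the KO values. In TA it averaged 14.50 ± 0.18 in KO mice and 12.85 ± 0.63 in WT mice (SD, n = 3 each), 3.13-fold higher in KO TA (1.64, SE 0.25, adjusted p = 0.0149), rank 130 of 22648 by size. The adjusted p became 0.126 with the TA arrays fitted alone, 0.0639 without KO TA replicate 2 and 0.0513 without WT TA replicate 1. Without the arrays numbered 3 the difference was 2.10 (adjusted p = 0.00498).

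In soleus Myh2 stood among the brightest probe sets of the array, at rank 8 to 13 from the top in KO mice and 10 to 12 in WT mice. The KO difference of the signal there was 0.02 (95% interval -0.54 to 0.57, adjusted p = 0.9997), and it turned to -0.01 on the values as deposited and to -0.03 with median centring. The KO effect in TA exceeded that in soleus by 1.63 (SE 0.35), which did not pass the test (adjusted p = 0.393) unless WT TA replicate 3 (1.98, adjusted p = 0.00367) or all arrays numbered 3 (2.13, adjusted p = 0.041) were left out. Soleus exceeded TA by 1.31 in KO mice (2.48-fold, SE 0.25, adjusted p = 0.0138) and by 2.94 in WT mice (7.66-fold, SE 0.25, adjusted p = 0.000179). Of 24 alternatives 1 lost the KO call, leaving out KO soleus replicate 1 (adjusted p = 0.0503). The interval of the WT difference was 2.38 to 3.49 and that of the KO difference 0.75 to 1.87.

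**Figure D3:**
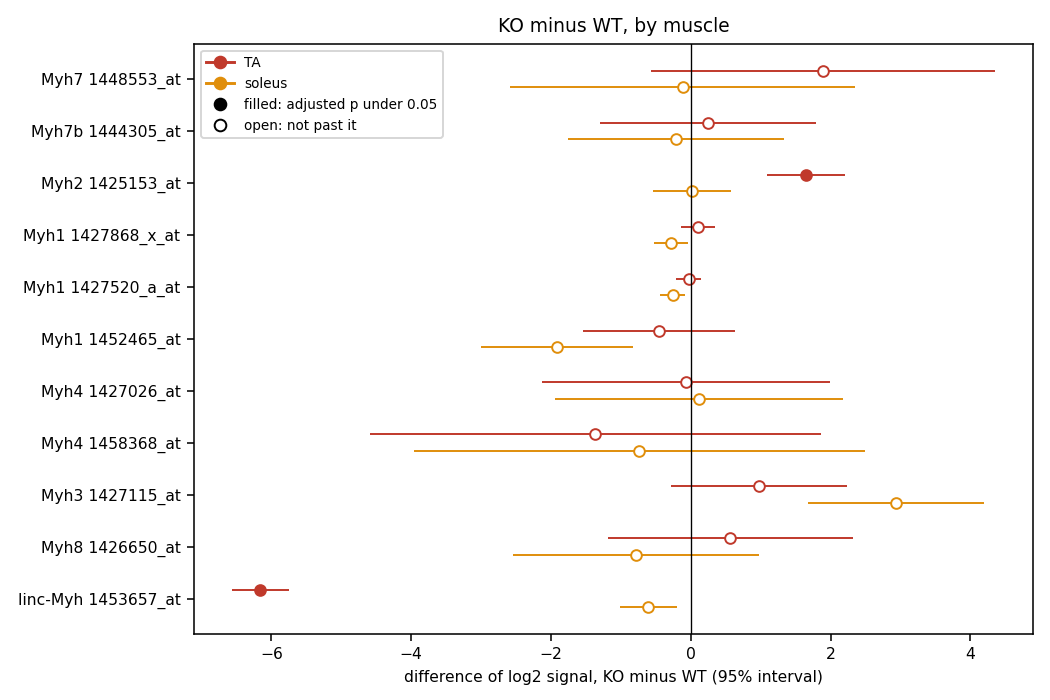
Difference of log2 signal between KO and WT (horizontal axis, with 95% intervals) for each of the 11 probe sets, in TA and in soleus, filled where the adjusted p is under 0.05. The filled points are linc-Myh at -6.16 and Myh2 at 1.64, both in TA; the soleus point of Myh3 at 2.94 is open.

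Myh3, the embryonic chain, had its highest signal in KO soleus, but the KO difference did not pass the test. Its signal was 11.68, 11.49 and 12.002 on the KO soleus arrays, against 9.55, 9.09 and 7.72 on the WT soleus arrays. It was 7.96, 6.51 and 8.29 on the KO TA arrays, against 7.24, 6.66 and 5.93 on the WT TA arrays. In soleus the 3 KO values lay above the 3 WT values, and in TA the groups overlapped. The soleus difference was 2.94 (SE 0.57, 7.66-fold, adjusted p = 0.172), rank 5 of 22648 by size, and it passed with array weights alone among the alternatives (2.66, adjusted p = 0.0356). Without the arrays numbered 3 it was 2.26 (adjusted p = 0.437). The TA difference was 0.98 (SE 0.57, adjusted p = 0.471), and the effects in TA and soleus differed by -1.96 (SE 0.80, adjusted p = 0.909).

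Between the muscles Myh3 was 17.6-fold higher in soleus than in TA in KO mice (4.14, SE 0.57, adjusted p = 0.00275). In WT mice it was 4.52-fold higher (2.18, SE 0.57, adjusted p = 0.0458), a call that 12 of 24 alternatives lost, with adjusted p up to 0.163. Of 10 markers of satellite cells and myoblasts 8 were tested between KO and WT soleus and 0 rose or fell; 6 were higher and 2 lower, with a median difference of 0.20 against 0.00016 over all probe sets. Their summed level ran from 10.41 to 10.99 in KO soleus, against 10.38 to 10.47 in WT soleus. Pax7, which defines satellite cells, was at background in both (2.75 in KO soleus and 2.75 in WT soleus), as was Chrng, the fetal acetylcholine receptor subunit (2.63 in KO soleus and 2.63 in WT soleus). Both were at background in KO and WT TA as well, so neither probe set can show how many such cells were present. Myf5, of the same list, was detected and averaged 7.72 ± 0.49 in KO soleus and 7.66 ± 0.12 in WT soleus (SD, n = 3 each). Myog, which drives myoblasts into fusion, averaged 7.35 ± 1.14 in KO soleus and 6.96 ± 0.97 in WT soleus (SD, n = 3 each). The smallest p of the list belonged to Cdh15 (-0.29, adjusted p = 0.833 by limma) and to Mymk (0.91, adjusted p = 0.837). Mymk had 5.47, 4.98 and 4.06 on the KO soleus arrays, against 4.05, 4.08 and 3.65 on the WT soleus arrays, and these overlap. The part of such cells in the Myh3 signal was not tested.

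Myh8, the neonatal chain, passed no test. Its signal was 8.38, 5.26 and 5.18 on the KO soleus arrays, against 7.25, 7.08 and 6.84 on the WT soleus arrays. It was 7.40, 7.25 and 8.98 on the KO TA arrays, against 6.98, 7.80 and 7.17 on the WT TA arrays. All 4 groups overlapped with their neighbours in level, and replicate 1 of KO soleus stood far above the other arrays of its group. The KO difference was -0.79 in soleus (95% interval -2.54 to 0.97, adjusted p = 0.967) and 0.56 in TA (-1.19 to 2.32, adjusted p = 0.817). Soleus differed from TA by -1.61 in KO mice (adjusted p = 0.283, and -2.66 with adjusted p = 0.0217 without KO soleus replicate 1) and by -0.26 in WT mice (adjusted p = 0.874).

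Myh1, the gene of the fast IIx chain, was read by 3 probe sets of very different brightness. The brightest, 1427868_x_at, whose suffix marks probes that can also bind related transcripts, had 15.78, 15.65 and 15.31 on the KO soleus arrays, against 15.80, 15.84 and 15.94 on the WT soleus arrays. The dimmest, 1452465_at, had 6.49, 5.74 and 4.21 on the KO soleus arrays, against 7.43, 7.60 and 7.16 on the WT soleus arrays. On both, and on 1427520_a_at, every KO soleus value lay below every WT soleus value. The differences were -0.28 (SE 0.11, adjusted p = 0.54) on 1427868_x_at, -0.26 (SE 0.08, adjusted p = 0.379) on 1427520_a_at and -1.92 (SE 0.49, adjusted p = 0.283) on 1452465_at, so none passed. KO soleus replicate 3 was the lowest array on all 3, and without the arrays numbered 3 the differences were -0.11, -0.15 and -1.40.

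In TA no Myh1 probe set passed between the genotypes. The dimmest had 7.84, 7.60 and 7.63 on the KO TA arrays, against 8.40, 8.47 and 7.55 on the WT TA arrays, and these overlap. The KO differences in TA were 0.10 (95% interval -0.14 to 0.35) on 1427868_x_at, -0.03 (-0.21 to 0.14) on 1427520_a_at and -0.45 (-1.54 to 0.63) on 1452465_at. Between soleus and TA of KO mice 1427520_a_at fell by 0.36 (SE 0.08, adjusted p = 0.0238) and 1452465_at fell by 2.21 (SE 0.49, adjusted p = 0.0267), while 1427868_x_at differed by -0.32 (adjusted p = 0.125). Of 23 alternatives 6 lost the call of 1427520_a_at and 5 that of 1452465_at, among them the fit of the KO arrays alone (adjusted p = 0.129 and 0.122). Between soleus and TA of WT mice none passed, with differences of 0.07, -0.14 and -0.75 and adjusted p from 0.32 to 0.752. The brightest probe set ranked 5 to 14 from the top of the array in TA and 1427520_a_at 56 to 60, so these values do not show a lack of change.

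Myh4, the gene of the fast IIb chain, was bright in TA and dimmer in soleus, in both genotypes. On the brighter probe set, 1427026_at, the signal was 12.01, 13.27 and 9.44 on the KO soleus arrays, against 10.96, 13.19 and 10.22 on the WT soleus arrays. It was 15.91, 15.94 and 15.69 on the KO TA arrays, against 15.91 on all 3 WT TA arrays, each at rank 7 of the array and therefore equal after quantile normalization. All TA values lay above all soleus values, and KO and WT overlapped in both muscles. The signal was 19.3-fold lower in soleus than in TA in KO mice (-4.27, SE 0.92, adjusted p = 0.0244) and 21.9-fold lower in WT mice (-4.45, SE 0.92, adjusted p = 0.0184). In KO mice 6 of 24 alternatives lost the call, with differences over all 24 from -5.12 to -3.21 and adjusted p up to 0.0848; without the arrays numbered 3 the difference was -3.28 (adjusted p = 0.057). In WT mice 3 of 24 lost it, with differences over all 24 from -5.32 to -3.36 and adjusted p up to 0.0731. The KO difference was 0.12 in soleus (95% interval -1.94 to 2.18) and -0.06 in TA (-2.12 to 1.99). The SD was 1.95 in KO soleus and 1.55 in WT soleus, against 0.14 in KO TA and 0 in WT TA (n = 3 each). The TA interval thus carries mostly the scatter in soleus.

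The dimmer Myh4 probe set, 1458368_at, gave the same order of the muscles. It had 4.71, 8.62 and 4.44 on the KO soleus arrays, against 6.92, 8.30 and 4.77 on the WT soleus arrays. It had 13.70, 13.38 and 9.92 on the KO TA arrays, against 14.37, 14.77 and 11.98 on the WT TA arrays. Replicate 3 was the lowest array in each of the 4 groups, with differences from the mean of the other arrays of -2.22 in KO soleus and -2.84 in WT soleus, and of -3.62 in KO TA and -2.59 in WT TA. Soleus was 85.0-fold lower than TA in KO mice (-6.41, SE 1.44, adjusted p = 0.0296) and 132-fold lower in WT mice (-7.04, SE 1.44, adjusted p = 0.0176). In KO mice 6 of 23 alternatives lost the call, with differences over all 23 from -7.76 to -5.67, the last without KO soleus replicate 3 (adjusted p = 0.078), and adjusted p up to 0.112. In WT mice 3 of 23 lost it, each by leaving out 1 WT array, with differences over all 23 from -7.91 to -6.10 and adjusted p up to 0.064. Between KO and WT the probe set differed by -0.74 in soleus (adjusted p = 0.9997) and by -1.37 in TA (adjusted p = 0.734).

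**Figure D4:**
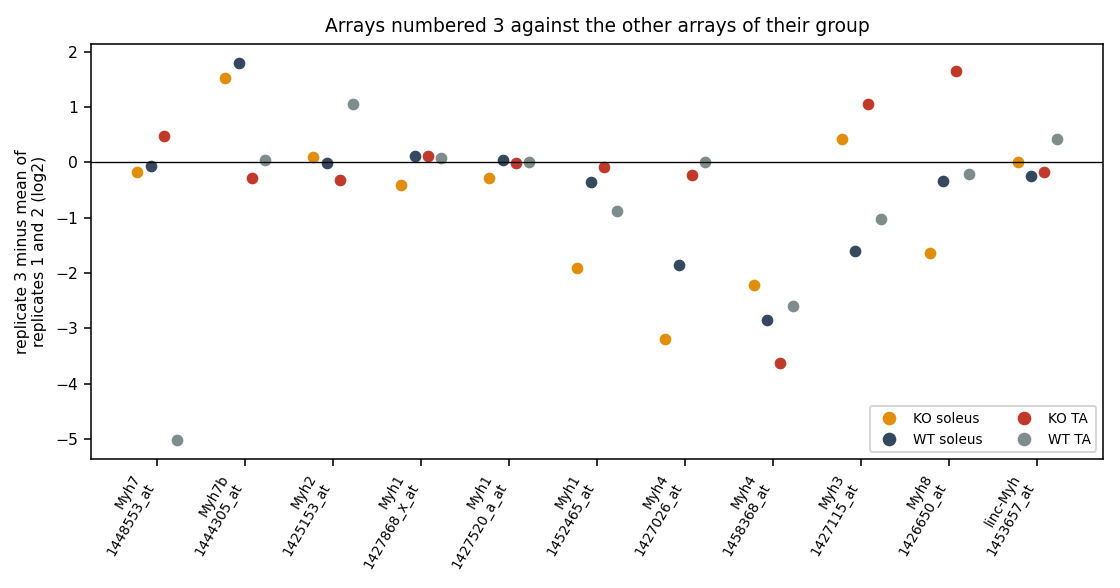
Signal of the array numbered 3 minus the mean of the arrays numbered 1 and 2 of the same group (log2, vertical axis) for each of the 11 probe sets, with a point for each of the 4 groups. The 4 points of Myh4 1458368_at lie between -3.62 and -2.22, and the WT TA point of Myh7 lies at -5.01.

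The genes whose profile was most like that of Myh4 1427026_at over the 12 arrays were Pvalb (root mean square difference 0.79), the calcium buffer of fast fibres, Actn3 (0.85), the alpha-actinin of fast Z-discs, Atp1b2 (0.93), a sodium pump subunit, Slc16a3 (0.93), a lactate carrier, and Mybpc2 (0.94), the fast myosin-binding protein C. Of the 14 fast fibre partners 7 fell in soleus against TA in each genotype and 0 rose, among them Mybpc2 (-3.99 in KO and -3.37 in WT mice) and Actn3 (-4.43 in KO and -4.02 in WT mice). Between KO and WT TA 1 of the 14 fell, Ampd1, the AMP deaminase of muscle (-4.80, SE 0.54, adjusted p = 0.00719), with a median of -0.16 over the list against -0.0043 over all probe sets. The mean signal of the 14 was 14.92, 14.53 and 14.78 on the KO TA arrays, against 15.35, 15.35 and 15.30 on the WT TA arrays, without overlap. Ampd1, by far the largest difference of the list, is part of this mean, and the mean without it was not computed. Of the 14 genes 12 were lower and 2 higher in KO TA.

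Myh7, the gene of the slow type I chain, had the largest difference in signal between the muscles of all probe sets tested. Its signal was 15.54, 15.27 and 15.23 on the KO soleus arrays, against 15.50, 15.48 and 15.42 on the WT soleus arrays. It was 8.04, 7.44 and 8.21 on the KO TA arrays, against 7.11, 8.25 and 2.67 on the WT TA arrays. All soleus values lay far above all TA values, and KO and WT overlapped in both muscles. Soleus was 175-fold higher than TA in KO mice (7.45, SE 1.102, adjusted p = 0.00411) and 703-fold higher in WT mice (9.46, SE 1.102, adjusted p = 0.00101), rank 1 of 22648 by size in both genotypes. By p its rank was 302 in KO mice and 162 in WT mice. The WT value rests in part on WT TA replicate 3 and was 7.79 without it (adjusted p = 3.97e-06).

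That same array carried the KO difference in TA. The difference was 1.89 (SE 1.102, adjusted p = 0.475) with all arrays, 0.22 (adjusted p = 0.82) without WT TA replicate 3 and 0.06 (adjusted p = 0.97) without all arrays numbered 3. Of 2 probe sets shared by Myh7 and Myh6, which are not among the 11, the brighter also had its lowest TA value there. It had 7.23, 6.61 and 8.15 on the KO TA arrays, against 7.09, 7.34 and 3.97 on the WT TA arrays. The dimmer was at background in both TA groups and was not lowest on that array. It had 2.69, 2.48 and 2.65 on the KO TA arrays, against 2.34, 2.66 and 2.65 on the WT TA arrays. The mean signal of 12 slow fibre partners was 9.59, 9.27 and 9.25 on the KO TA arrays, against 8.74, 8.85 and 7.68 on the WT TA arrays. The list mean did not overlap between KO and WT TA, and its median difference was 1.12 against -0.0043 over all probe sets, but only Myom3 of the 12 rose (2.36, adjusted p = 0.00383). Of the 12 genes 10 were higher and 2 lower in KO TA. The summed level of the list, which weighs bright genes most, did overlap (15.46 to 15.67 in KO TA, against 15.66 to 15.76 in WT TA). Mb, the brightest of the list in TA, averaged 15.28 in KO TA and 15.52 in WT TA. The share of slow fibres in the TA results of Myh7 and Myh2 was not tested. In soleus Myh7 differed between KO and WT by -0.12 (95% interval -2.58 to 2.34, adjusted p = 0.9997). The SD was 0.17 in KO soleus and 0.04 in WT soleus, against 2.95 in WT TA (n = 3 each), so this interval carries mostly the scatter in TA.

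The 5 genes most like Myh7 in profile were all partners of slow contraction: Tnni1 (root mean square difference 0.90), Tnnt1 (0.95) and Tnnc1 (1.05), the slow troponins, Myl2 (1.20), a slow light chain, and Tpm3 (1.27), the slow tropomyosin. Of the 12 slow fibre partners 11 rose in soleus against TA in each genotype and 0 fell, with a median of 5.18 in KO mice and 6.48 in WT mice.

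Myh7b, the other chain of the slow class, was detected in soleus alone. Its signal was 6.98, 5.51 and 7.77 on the KO soleus arrays, against 5.40, 7.34 and 8.17 on the WT soleus arrays. It was 3.18, 3.79 and 3.19 on the KO TA arrays, against 3.13, 3.11 and 3.17 on the WT TA arrays, with both TA groups at background. Soleus was at least 8.55-fold higher than TA in KO mice (3.37, SE 0.69, adjusted p = 0.0196) and at least 9.92-fold higher in WT mice (3.83, SE 0.69, adjusted p = 0.00955). In KO mice 8 of 24 alternatives lost the call, with differences over all 24 from 2.26 to 3.99 and adjusted p up to 0.0838, the highest without the arrays numbered 3. In WT mice 2 of 24 lost it, the WT arrays fitted alone (adjusted p = 0.0508) and the fit without the arrays numbered 3 (adjusted p = 0.0503), with differences over all 24 from 2.56 to 4.61. KO and WT overlapped in soleus, where the difference was -0.21 (adjusted p = 0.9997), and it turned to 0.41 without KO soleus replicate 2 and to 0.39 without WT soleus replicate 3.

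**Figure D5:**
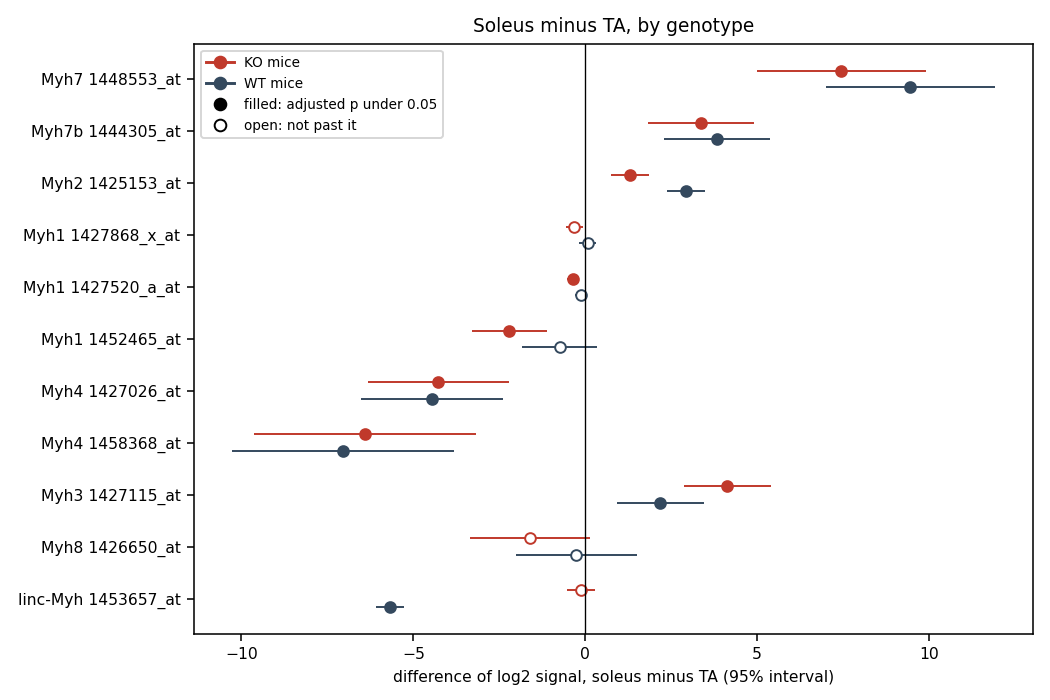
Difference of log2 signal between soleus and TA (horizontal axis, with 95% intervals) for each of the 11 probe sets, in KO and in WT mice, filled where the adjusted p is under 0.05. Myh7, Myh7b, Myh2 and Myh3 lie to the right of 0 and Myh4 to the left in both genotypes, whereas linc-Myh lies at -0.12 in KO mice and at -5.67 in WT mice.

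Ranked by group mean, the order was soleus before TA in both genotypes for Myh7, Myh7b, Myh2 and Myh3, and TA before soleus for both probe sets of Myh4. For Myh7 and both probe sets of Myh4 the neighbours KO and WT overlapped in each muscle, and for Myh2 and Myh7b in soleus, so that their order there is not settled. For Myh3 the neighbours WT soleus and KO TA overlapped as well. For linc-Myh the order was WT TA, WT soleus, KO TA and KO soleus, in which the KO groups overlapped with each other. The 12 values spanned 12.87 log2 units for Myh7 and 10.32 for Myh4 1458368_at, but 0.66 for Myh1 1427868_x_at and 0.59 for Myh1 1427520_a_at.

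Other myosin heavy chain genes were measured for comparison. Of 7 such genes 5 were tested, and 0 passed between KO and WT in TA or in soleus, the smallest p belonging to Myh6 in TA (0.56, adjusted p = 0.199) and to Myh10 in soleus (0.60, adjusted p = 0.74). Myh6, the cardiac alpha chain, rose in soleus against TA on its brightest probe set. The rise was 4.31 in KO mice (adjusted p = 3.36e-06) and 4.56 in WT mice (adjusted p = 1.41e-06). Another Myh6 probe set stayed between 3.22 and 3.43 on all 12 arrays. Myh10, a nonmuscle chain, rose in soleus by 2.49 in KO mice (adjusted p = 0.00178) and by 2.31 in WT mice (adjusted p = 0.00223).

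A list of 39 regulators of the skeletal Myh genes was drawn up from factors and calcium signals known to act on them, of which 35 were tested. Between KO and WT TA 0 rose and 1 fell, Smarcd3, the muscle subunit of the SWI/SNF chromatin remodeller (-1.07, SE 0.21, adjusted p = 0.0335), with a list median of -0.08 against -0.0043 over all probe sets. Smarcd3 was 11.10, 10.37 and 10.53 on the KO TA arrays, against 11.73, 11.67 and 11.82 on the WT TA arrays, without overlap. Between KO and WT soleus 0 of 35 passed, and the smallest p belonged again to Smarcd3 (-0.56, adjusted p = 0.508). Between soleus and TA 4 rose and 5 fell in KO mice, and 3 rose and 8 fell in WT mice. Maf, which drives Myh4 in fast fibres, fell in soleus (-1.81 in KO mice and -2.39 in WT mice). Sox6, a repressor of slow fibre genes, fell as well (-1.53 in KO mice and -1.87 in WT mice), as did Tbx15, a factor of glycolytic fibres (-1.08 in KO mice and -1.15 in WT mice). Esrrg, a nuclear receptor of oxidative fibres, rose in soleus by 2.10 in KO mice and by 1.78 in WT mice.

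Of 18 genes for the folding of myosin and the assembly of the thick filament 14 were tested. Between KO and WT TA 1 rose and 0 fell, namely Myom3, also among the slow fibre partners, an M-band protein of slow and intermediate fibres, which had 7.35, 6.58 and 6.22 on the KO TA arrays, against 4.50, 4.27 and 4.30 on the WT TA arrays. These values did not overlap, and the difference was 2.36 (SE 0.24, adjusted p = 0.00383). In soleus 0 passed between KO and WT, and the smallest p belonged to Mybpc2 (-1.29, adjusted p = 0.441). Between soleus and TA 2 rose and 3 fell in KO mice, and 2 rose and 2 fell in WT mice. Myom3 and Mybpc1, the slow myosin-binding protein C, rose in soleus in both genotypes (4.60 and 0.83 in KO mice, 6.55 and 0.60 in WT mice). Mybpc2 and Myom2, an M-band protein of fast fibres, fell in both (-3.99 and -0.94 in KO mice, -3.37 and -0.98 in WT mice). Unc45b, the chaperone that folds the myosin head in muscle, fell in soleus of KO mice (-0.78, adjusted p = 0.0191).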

How the data were processed

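Total RNA of 12 muscle samples was extracted with Trizol, biotin-labelled and hybridised to 1-colour Affymetrix arrays, per the labels' protocols. The authors deposited log2 signal values for 45101 probe sets per array (0.889 to 16.36), for which MAS5 is named, with no version, per the submitters' processing notes; how probes were summarised is otherwise not given in the sources used here. Intensities carry no read depth, so the number of arrays limits the precision.

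Sample titles gave each array its group and replicate number (0 unmapped). Arrays were quantile normalized, since their 2% trimmed means on the linear scale lay up to 1.11 times apart, past a limit of 1.1. Of the probe sets, 34945 had 1 gene symbol in the platform annotation, 932 had several and 9160 had none, besides 64 controls. Those with 1 symbol were tested if they exceeded log2 2.76, the 40th percentile, on 3 or more arrays, which left 22648, in R 4.3.3 with limma 3.58.1 (lmFit on 4 group means over 12 arrays, eBayes with a variance trend, 2-sided, Benjamini-Hochberg adjustment, threshold 0.05). The fit was tested on simulated data. For 1 probe set, the smallest p an exact permutation of 3 against 3 arrays allows is 0.1. A fold against a group at background (log2 3.66) is a lower bound taken against that level.

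The members and the gene lists were chosen with earlier results of these data known. For a gene of a list the brightest probe set was used. Named were all member probe sets, H6pd, and up to 4 genes of smallest p past the threshold per list and comparison (otherwise up to 2 as values). The 5 genes of most similar profile to linc-Myh, Myh4 and Myh7 were also named, among genes whose brightest probe set averaged above log2 5. All 8 members matched the RefSeq promoter table of GRCm38.p6.

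To see whether arrays of equal number deviate together, deviations from the group means were correlated. The correlations for numbers 1, 2 and 3 were 0.34, 0.32 and 0.63 between KO and WT TA, 0.38, 0.10 and 0.67 between KO and WT soleus, 0.45, 0.55 and 0.66 between the KO muscles and 0.40, 0.16 and 0.61 between the WT muscles. These exceed 0.1, so a replicate block was among the 24 alternatives; the pairing comes from these values and not from the labels. The other alternatives changed the scaling, filter, probe sets per gene, a pseudocount of 16, the variance prior, array weights and the arrays in the fit.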

Additional observations from a re-analysis of the deposited data

Results flagged for a closer look

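The KO effect on linc-Myh differed between the muscles by the test of the difference itself. It was -6.16 (log2) in TA and -0.61 in soleus, a difference of -5.55 (SE 0.26, adjusted p = 3.00e-05 by limma), which was rank 1 of 22648 probe sets by size. Over 22 alternatives that could test it, the difference stayed between -5.69 and -4.52, with adjusted p between 1.04e-05 and 0.026. The KO soleus mean of 3.14 and the KO TA mean of 3.26 were at background and the WT soleus mean of 3.74 was just above it, so that a fall in soleus could not have been read. Groups of 3 arrays are too small for a test of single outlying arrays.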

How the results depend on the processing

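The 55 member differences (11 probe sets in 5 comparisons) were recomputed under 24 alternatives, which gave 1289 values. Of these 1202 kept their direction and side of the threshold, 55 lost the call, 4 gained one and 28 turned sign; 0 of the 28 belonged to a difference that had passed the test. The calls for linc-Myh stood under every alternative that tested it, but a filter on a mean log2 above 5 removed it, which left 1 member probe set called between KO and WT TA and 0 for the difference of the KO effects. With the TA groups fitted alone 1 was called, and 1 to 2 when single arrays were left out (1 without KO TA replicate 2 or WT TA replicate 1). Array weights called 1 between KO and WT soleus. The difference of the KO effects gave 2 without the arrays numbered 3, and 1 to 2 when single arrays were left out (2 without WT TA replicate 3). Between soleus and TA, leaving out single arrays gave 3 to 8 calls in KO mice (3 without KO TA replicate 1 or 2, 4 without KO TA replicate 3 or KO soleus replicate 1) and 4 to 7 in WT mice (4 without WT TA replicate 1 or 2 or WT soleus replicate 1). In KO mice 5 were called with 1 probe set a gene, 3 with the 2 groups fitted alone and 5 without the arrays numbered 3.

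With median centring Myh1 1427520_a_at turned to 0.028 between KO and WT TA and Myh2 to -0.029 between KO and WT soleus, where the deposited values gave -0.0089 for Myh2. Without the arrays numbered 3, Myh4 1427026_at (0.014) and Myh8 (-0.061) turned between KO and WT TA and Myh2 (-0.024) between KO and WT soleus. With array weights Myh4 1427026_at turned to -0.45 between KO and WT soleus and to 0.39 in the difference of the KO effects. When single arrays were left out, Myh4 1427026_at ran from -0.11 to 0.014 between KO and WT TA, from -0.73 to 1.18 between KO and WT soleus and from -1.25 to 0.67 in the difference of effects. Myh4 1458368_at ran from -2.08 to 0.080 between KO and WT soleus and from -1.498 to 0.71 in the difference of effects, Myh7b from -0.998 to 0.41 and from -0.16 to 1.25. Myh2 ran from -0.017 to 0.045 between KO and WT soleus, and linc-Myh from -0.20 to 0.012 between KO soleus and KO TA. The causes were not tested.

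With the replicate block, the counts of members called were 2 between KO and WT TA, 0 in soleus, 1 for the difference of effects, and 8 and 7 between the muscles of KO and of WT mice, and no member's call changed. Over all probe sets the block moved the calls between KO and WT TA to 1231 from 458, and fitting the TA arrays alone gave 3. Between the muscles it gave 2989 against 1494 in KO mice and 3296 against 1745 in WT mice. In TA 221 probe sets were higher and 237 lower, against 382 and 151 with median centring. Precision is limited by 3 arrays a group.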
